A study of Mus musculus with 2 samples.

Results

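The 3-beta-hydroxysteroid dehydrogenase genes Hsd3b1 to Hsd3b7 were described in total RNA from the adrenal gland of female mice. The 7 members were chosen by symbol from a fixed list, and all 7 were found among the 55536 GENCODE genes of the deposited tables. The animals were B6CASTF1/J hybrids, 14 days old, and the labels name no treatment and no engineered allele. They give 1 group with 2 biological replicates, each made from 300 ng of RNA after reduction of ribosomal RNA and addition of ERCC spike-ins (synthetic RNAs of known amount). The description of each library speaks of pooled females and the donor identifier is shared, but in replicate 2 the tissue is labelled as 1 numbered female. The labels therefore do not settle if 2 sets of animals were used, and the spread between the replicates may be partly technical. With 1 group there is no test between conditions, so every difference below is one between 2 libraries.

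As background, these enzymes act on the 3-beta-hydroxyl group of steroids and sterols. In the adrenal cortex, the step from pregnenolone to progesterone is theirs, and it lies on the way to both corticosterone and aldosterone. In the mouse, Hsd3b1 is the main form of adrenal and gonad, and Hsd3b6 is known as a form of the zona glomerulosa, the aldosterone-making outer cortex. Hsd3b2 and Hsd3b3 are known from liver and kidney, and Hsd3b4 and Hsd3b5 are reductases of 3-ketosteroids known from kidney and liver. Hsd3b7 is the distant member, which oxidises ring-hydroxylated sterols in bile acid synthesis.

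The sequence relations come first because they set how far the reads of the members can be told apart. In mm10, Hsd3b1 to Hsd3b6 lay within chr3:98499071-98859794, all on the minus strand, and Hsd3b7 alone lay on the plus strand at chr7:127800604-127803802. Hsd3b1 took the right end of the cluster at chr3:98852194-98859794. To its left lay Hsd3b6 at chr3:98805504-98814443, Hsd3b3 at chr3:98741523-98763127, Hsd3b2 at chr3:98709255-98724543, Hsd3b5 at chr3:98618634-98630252 and Hsd3b4 at chr3:98499071-98510514. Each of the 6 cluster genes had a coding sequence of 1122 bases in its longest coding form, so they could be set side by side with no gap. Hsd3b1 shared 90.0% of its coding bases with Hsd3b6, 89.3% with Hsd3b2 and with Hsd3b3, 82.7% with Hsd3b4 and 82.0% with Hsd3b5. Within the cluster there were 2 closer sets, since Hsd3b2 and Hsd3b3 shared 95.1% and Hsd3b4 and Hsd3b5 95.2%. Hsd3b6 stood with the first set, at 94.4% with Hsd3b2 and 94.5% with Hsd3b3.

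Identical runs of coding bases were longer within these sets than outside them. Hsd3b2 and Hsd3b3 shared a run of 228 bases, Hsd3b6 and Hsd3b3 one of 147 bases, and Hsd3b4 and Hsd3b5 one of 166 bases. The longest run that Hsd3b1 shared with another member was 72 bases, with Hsd3b6. Hsd3b4 and Gm10681, a neighbouring copy, were identical over all 1122 coding bases, and Gm4450, a further copy, differed from Hsd3b4 at 4 of them.

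Over whole reference transcripts most members could be told apart. The sequence of the other parent strain of these hybrids was not examined. A window is a run of 100 bases of a member's transcripts, and a window is its own when no transcript of another gene holds it on either strand. Hsd3b1 held 1851 windows, and 100% of them were its own. The share was 96.9% for Hsd3b6, 95.3% for Hsd3b3, 92.2% for Hsd3b5 and 91.7% for Hsd3b2. Hsd3b4 had none of its own, because all 1538 of its windows also occurred in Gm10681 and 73.9% of them in Gm4450 as well. For Hsd3b7 the share was 28.0%, not through its paralogs but through a pair of genes on the same ground. The protein-coding Gm49388, on the same strand, held 42.7% of its windows, and 9430064I24Rik held 35.2% on the opposite strand. Shorter windows of 31 bases lowered the shares, to 87.0% for Hsd3b1 and 62.4% for Hsd3b2.

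**Figure D1:**
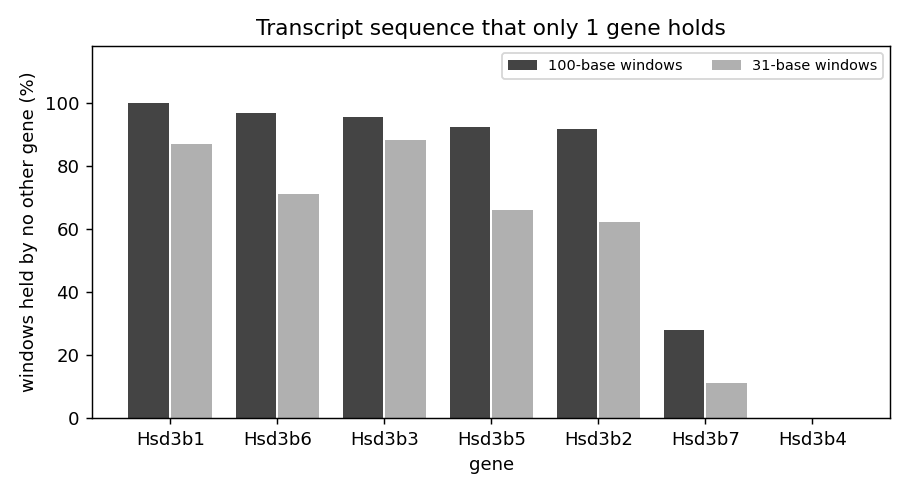
Share of the transcript windows of each gene (percent, vertical axis) that no other gene holds on either strand, for windows of 100 bases (dark bars) and 31 bases (light bars). Hsd3b1 reached 100% at 100 bases, Hsd3b7 reached 28.0% and Hsd3b4 had no window of its own.

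The libraries held 37586172 expected counts in replicate 1 and 33844950 in replicate 2. Adrenal markers were present in both. Star, the carrier of cholesterol into mitochondria, had 2049 and 838 TPM (transcript level per length, relative to all entries of the table), and the chromaffin granule gene Chgb of the medulla 557 and 269 TPM. No kidney marker of the 10 listed passed 0.26 TPM in either library, and of 8 gonad markers Insl3 alone passed 1 TPM, at 2.70 and 1.02 TPM. The libraries also stood apart by cell types not named in the labels. Summed over 12 liver markers, with none at 0, the level was 393 TPM in replicate 1 and 21282 TPM in replicate 2. The 5 skeletal muscle markers summed to 11.6 and 320.1 TPM, and the 6 T cell and thymus markers to 34.2 and 0.85 TPM, whereas the 5 fat markers were nearer, at 2204 and 2454 TPM.

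Hsd3b1 was by far the highest member. Its level was 2870 TPM in replicate 1 and 1275 in replicate 2, from 163544 and 68921 expected counts. It was the 14th and the 19th highest of 22028 protein-coding genes, and it made up 99.0% and 93.1% of the summed TPM of the 7 members. The mean level was 2072 ± 1128 TPM (SD, n = 2), and the lower of its 2 values was still above every value of every other member.

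Hsd3b6, the glomerulosa form, was at 17.3 TPM in replicate 1 and at 9.74 in replicate 2. As with Hsd3b1, replicate 1 was the higher library. Hsd3b1 stood 166-fold above it in replicate 1 and 131-fold above it in replicate 2, a log2 ratio of levels of 7.20 ± 0.24 (SD, n = 2). Set against Cyp11b2, the aldosterone synthase of the same zone, Hsd3b6 had 0.427 and 0.509 times its TPM in the gene table, and 0.25 and 0.377 times in the second transcript table (a separate deposited quantification of each library).

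Hsd3b7 was at 11.4 TPM in replicate 1 and at 42.3 in replicate 2. Hsd3b3 had 0.44 and 33.7 TPM, and Hsd3b5 had 0.14 and 6.30 TPM. For all 3 the higher library was replicate 2, the reverse of Hsd3b1 and Hsd3b6. Hsd3b2 had 0.10 and 1.80 TPM. Hsd3b4 was listed at 0 in replicate 1, where 0 counts allow up to 3 counts of the total, and at 0.80 TPM in replicate 2.

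Ordered by mean level, the members ran Hsd3b1, Hsd3b7 (26.9 ± 21.9 TPM), Hsd3b3 (17.1 ± 23.5 TPM), Hsd3b6 (13.5 ± 5.32 TPM), Hsd3b5 (3.22 ± 4.36 TPM), Hsd3b2 (0.95 ± 1.20 TPM) and Hsd3b4 (0.40 ± 0.57 TPM), each as SD with n = 2. Only 2 steps of this order had values that did not overlap between neighbours, that from Hsd3b1 to Hsd3b7 and that from Hsd3b6 to Hsd3b5. The middle of the order depended on the library. Hsd3b6 took place 2 in replicate 1 and place 4 in replicate 2, and Hsd3b3 took places 4 and 3. In replicate 1, Hsd3b6 had 39.2 times the TPM of Hsd3b3, and in replicate 2 it had 0.289 times.

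**Figure D2:**
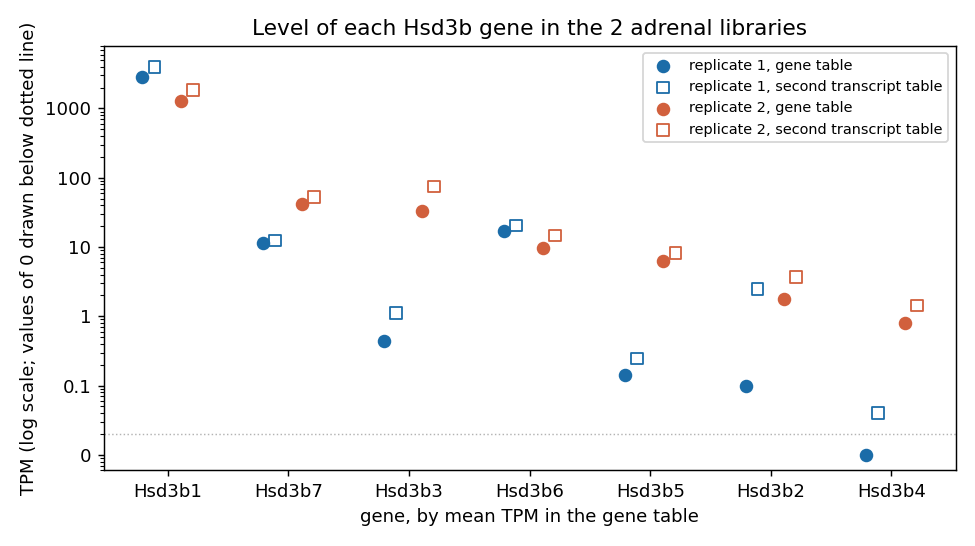
Level of each member in TPM (vertical axis, log scale, values of 0 drawn below the dotted line) in replicate 1 (blue) and replicate 2 (orange), from the gene table (filled circles) and the second transcript table (open squares). Hsd3b1 and Hsd3b6 were higher in replicate 1, and the other 5 members were higher in replicate 2.

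The difference between the libraries was measured on expected counts scaled by TMM (trimmed mean of M values), as log2 of replicate 2 over replicate 1, and a gene was called where it passed 2-fold. Genes were compared where the mean count reached 20, which let in 6 of the 7 members. Of the members compared, 4 were over 2-fold higher in replicate 2 (Hsd3b2, Hsd3b3, Hsd3b5 and Hsd3b7), beside 8.44% of 16170 genes. No member was over 2-fold lower, beside 2.55% of those genes, and Hsd3b1 and Hsd3b6 lay within 2-fold. Hsd3b2 and Hsd3b5 met the count minimum through replicate 2 alone, so their place among the called genes follows in part from that filter. The intervals given with each fold are 95% Clopper-Pearson intervals and cover counting error only.

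Among the adrenal forms, Hsd3b1 was 1.68-fold lower in replicate 2 (interval 1.67 to 1.70, log2 difference -0.75). Hsd3b6 was 1.36-fold lower (1.22 to 1.51, log2 difference -0.44). The side of the 2-fold line depended on the scaling for Hsd3b1. Its log2 difference was -1.10 with scaling to total counts and -1.03 with scaling to the spike-ins, which moved the median gene compared to -0.34 and -0.28, from 0.00 with TMM. These scalings shift the log2 difference of every gene by the same amount, so the distance of Hsd3b1 from that median gene could not change.

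The steroid pathway list moved the same way as Hsd3b1 in most of its genes. Of its 16 genes, 14 were lower in replicate 2, beside 8054 of the 16170 genes compared. Past 2-fold were 3 lower, beside 2.55% of all genes, and 1 higher, beside 8.44%. The median log2 difference was -0.73 against 0.00 over all genes compared. Cyp11a1, which makes the pregnenolone that Hsd3b1 uses, had 1202 and 517 TPM. Its ratio to Hsd3b1 was nearly the same in both libraries, since Hsd3b1 had 2.39 and 2.46 times its TPM. Cyp21a1, the next hydroxylase on the way to corticosterone, had 1347 and 639 TPM, and Hsd3b1 had 2.13 and 2.00 times its level. Cyp11b1, the last enzyme of corticosterone synthesis, had 882 and 353 TPM. Hsd3b1 also kept close to Star, with 1.40 and 1.52 times its TPM.

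The 4 genes of the pathway list past 2-fold are named after their values were seen. Akr1c18, which inactivates progesterone, had 1644 and 399 TPM and a log2 difference of -1.61. Mc2r, the receptor for ACTH, was at -1.12, and Scarb1, which takes up lipoprotein cholesterol, at -1.03. Hsd11b1, which regenerates corticosterone and is abundant in liver, was the 1 gene over 2-fold higher, with 9.91 and 53.8 TPM. All 9 glomerulosa markers were compared, with a median log2 difference of -0.40. Of them, 1 passed 2-fold, beside 2.55% of all genes lower. It was the nuclear receptor Nr4a2 (also named after its value was seen), at -1.53. Hsd3b6, at -0.44, lay near that median. The 6 chromaffin markers, of another cell type of the gland, had a median of -0.73. In bulk tissue, a smaller share of a cell type in the tissue taken and less RNA per cell cannot be told apart.

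In the members known from liver the differences were larger and of the opposite sign. Hsd3b3 had 26.6 expected counts in replicate 1 and 1535 in replicate 2, and was 78.7-fold higher (interval 54.8 to 122, log2 difference 6.30). Hsd3b5 had 7 and 301.1 counts and was 56.6-fold higher (29.0 to 152, log2 difference 5.82). Hsd3b2 had 11.9 and 150.9 counts and was 17.1-fold higher (9.86 to 35.1, log2 difference 4.09), but this call was lost in the second transcript table, where its log2 difference was 0.93. The intervals of Hsd3b3 and Hsd3b5 overlapped each other, and that of Hsd3b2 lay below that of Hsd3b3 but overlapped that of Hsd3b5.

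The liver markers differed on the same scale as Hsd3b3 and Hsd3b5. All 12 were over 2-fold higher in replicate 2, beside 8.44% of all genes, with differences between 4.28 and 6.69 and a median of 6.29. Hsd3b2, at 4.09, lay below all of them, but its interval of 9.86- to 35.1-fold held the values of Cyp2e1 (19.4-fold) and Hp (30.1-fold). Alb, the plasma albumin, had 189 and 10582 TPM and a difference of 6.33, and Ahsg, another plasma protein, 60.7 and 3673 TPM and a difference of 6.32. Per 1000 TPM of Alb, Hsd3b3 had 2.33 TPM in replicate 1 and 3.18 in replicate 2, and Hsd3b5 had 0.742 and 0.595 TPM. In the second transcript table the values were 5.15 and 5.58 TPM for Hsd3b3, and 1.12 and 0.610 TPM for Hsd3b5. For Hsd3b2 they were 0.530 and 0.170 TPM from the gene table, and 11.4 and 0.274 TPM from the second. Of 10 genes known for sex-biased liver expression, 8 were compared and 6 were over 2-fold higher, beside 8.44% of all genes. The median of the 8 was 6.12, and some of them met the count minimum through replicate 2 alone. The male-biased genes of that list did not move as one. Mup20 and Cyp4a12a were at 0 in both libraries, Cyp2d9 had 0.16 and 5.35 TPM, Slco1a1 0 and 0.36 TPM, Elovl3 2.58 and 2.82 TPM, and Cyp7b1 1.30 and 1.67 TPM. Differences of this size were not limited to liver genes. All 5 skeletal muscle markers were over 2-fold higher in replicate 2, beside the same 8.44%, between 4.52 and 8.43 with a median of 5.10. Of these, Myh2, at 8.43, met the count minimum through replicate 2 alone. What part RNA of liver cells or of other cells had in the levels of Hsd3b2, Hsd3b3 and Hsd3b5 was not tested.

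Hsd3b7 lay between the adrenal forms and the liver markers. It had 646 expected counts in replicate 1 and 2350 in replicate 2, and was 5.12-fold higher in replicate 2 (interval 4.70 to 5.60, log2 difference 2.36). Per 1000 TPM of Alb it had 60.3 TPM in replicate 1 and 4.00 in replicate 2, and the second transcript table gave 56.7 and 3.95 TPM. In replicate 1 its level was 25.9-fold that of Hsd3b3, and in replicate 2 it was 1.26-fold. In the second transcript table these ratios were 10.99 and 0.707, so that Hsd3b3 was the higher of the pair in replicate 2 there.

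The bile acid synthesis list, to which the reaction of Hsd3b7 belongs, spread over the same range. Of its 16 genes, 15 were compared, 11 were over 2-fold higher in replicate 2 beside the 8.44% of all genes, none was over 2-fold lower, and the median was 2.10. Of the 11, Cyp7a1, Cyp8b1 and Baat met the count minimum through replicate 2 alone. Scp2, a sterol carrier that shortens the side chain, had 78.9 and 236.6 TPM and a log2 difference of 2.00. Akr1d1, the steroid 5-beta-reductase, had 104.7 and 94.5 TPM and a difference of 0.29, and Slc27a2, an acyl-CoA synthetase, had 18.1 and 115.2 TPM and 3.13. The peroxisomal enzyme Hsd17b4 had 49.5 and 69.2 TPM and a difference of 0.85. Akr1c6, a further reductase of this group, had 0.61 and 54.4 TPM and a difference of 6.96. The list thus held genes at near-equal level in both libraries and genes as far apart as Alb, with Hsd3b7 close to its median.

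**Figure D3:**
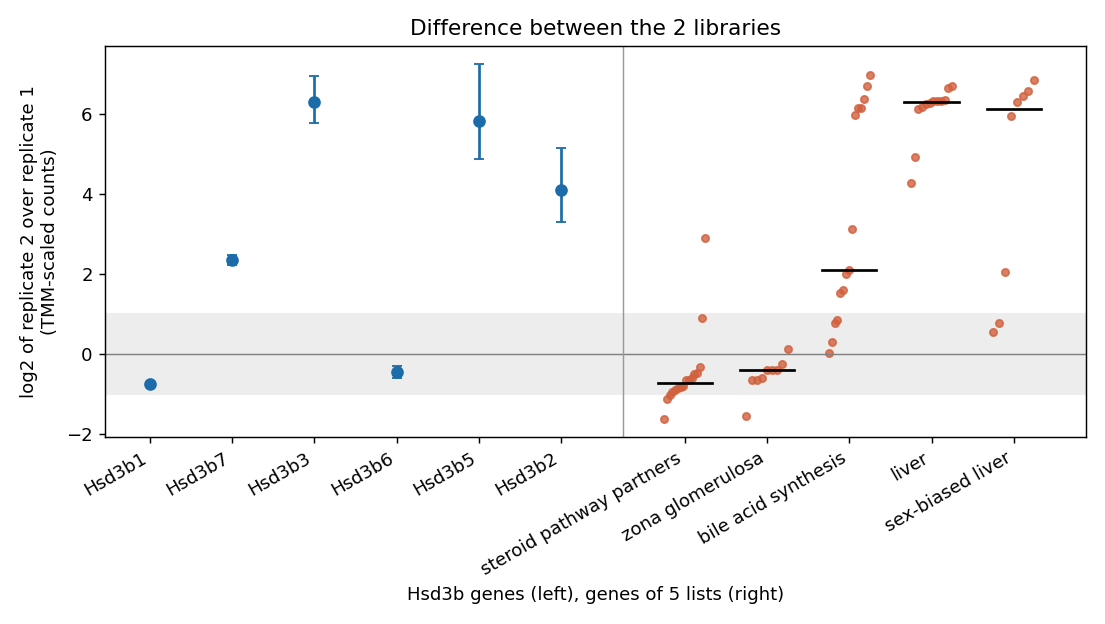
Log2 of replicate 2 over replicate 1 on TMM-scaled counts (vertical axis) for the 6 members whose mean count reached 20 (blue, with 95% intervals for counting error) and for the genes of 5 lists (orange, 1 point a gene, black line at the median). The grey band is 2-fold. Hsd3b1 and Hsd3b6 lie in the band with most steroid pathway genes, Hsd3b7 is at 2.36 and Hsd3b3 at 6.30, where the liver median is 6.29.

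Hsd3b4 cannot be read apart from its copies. In replicate 2, Hsd3b4 and Gm10681 each had 39.4 expected counts, and Gm4450 had 45.1, while all 3 were at 0 in replicate 1. The authors' posterior SD of the replicate 2 count was 17.9 for Hsd3b4 and 17.8 for Gm10681, against 5.24 for Gm4450. Together the 3 genes had 123.9 counts and 3.09 TPM in replicate 2. On scaled counts this was 58.2-fold the floor of 3 counts in replicate 1, with the error of the replicate 2 count left out. In the second transcript table the set had 3.25 and 121.3 estimated counts.

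The rest of the neighbourhood was examined for reads that could belong to the members. Within 100 kb of the cluster lay 17 other annotated genes, of which 11 were pseudogenes, and no pseudogene passed 8 counts in either library. Zfp697, which overlaps Hsd3b3 on the opposite strand, had 147 and 117 counts, a log2 difference of 0.17 beside 6.30 for Hsd3b3. Hao2, a hydroxyacid oxidase gene next to Hsd3b1, had 71.6 and 45.6 TPM and a difference of -0.23. Gm43190, inside Gm4450, had 1 and 0 counts in the gene table and 177 and 93.2 in the second transcript table. At the Hsd3b7 locus, Gm49388 had 13.9 and 38.5 counts with posterior SDs of 45.4 and 48.9, larger than the counts themselves, and 197 and 440 counts in the second transcript table. 9430064I24Rik had 12 and 7 counts. The posterior SD of Hsd3b7 itself was 12.4 counts in replicate 1 and 14.2 counts in replicate 2, small beside its counts. Outside the family, Nsdhl, which acts on 3-beta-hydroxysterols in cholesterol synthesis, had 11.2 and 6.33 TPM and a log2 difference of -0.41. Sdr42e1, the other gene found of that list, had 1.12 and 3.71 TPM and a difference of 2.51.

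The 2 quantifications were then compared, since near copies can be split differently by each. The gene table derives from an alignment to the transcriptome, and the second transcript table, summed here to genes, from read files and an index. Genes were compared where the mean TPM of the replicates reached 1 in either table, which let in 6 members. Of these, 1, Hsd3b2, was over 2-fold higher in the second table, beside 7.01% of 15316 genes. None was over 2-fold lower, beside 3.16%. The comparison used log2(TPM + 1), averaged over the replicates. The median gene was itself 0.44 higher in the second table on that scale, and relative to it no member passed 2-fold.

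Counts, which do not carry that shift in TPM, placed most members close together. Hsd3b1 had 1.14 times its gene table count in the second table in replicate 1 and 1.11 times in replicate 2. Hsd3b6 had 0.976 and 0.970 times, and Hsd3b7 0.938 and 0.939 times, so these 3 members kept their ratio from library to library. Hsd3b3 had 1.29 and 1.06 times its count, and Hsd3b5 1.39 and 0.926 times. Hsd3b1 was at 3986 and 1857 TPM in the second table, again the highest member in both libraries. By mean TPM of that table, Hsd3b3 took place 2 and Hsd3b7 place 3, at 37.8 and 32.6 TPM.

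Hsd3b2 was the exception. Its 11.9 and 150.9 counts became 270.3 and 344.9 in the second table, 22.7 times and 2.29 times as many. All of the second table's counts sat on 1 transcript, Hsd3b2-202, which is 3695 bases long. In replicate 2 the first transcript table gave it 95.2 counts and gave 55.7 to the 1788-base Hsd3b2-201. In replicate 1, where the tables were further apart, the first table also put 97.8% of its few counts on Hsd3b2-202. Of the 31-base windows found in Hsd3b2-202 and in no other transcript of the gene, 752 of 1937, or 38.8%, also occurred in genes outside the family, 578 of them. With 100-base windows the share was 5.03%, from 16 genes. Whether this sharing accounts for the added counts was not tested.

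**Figure D4:**
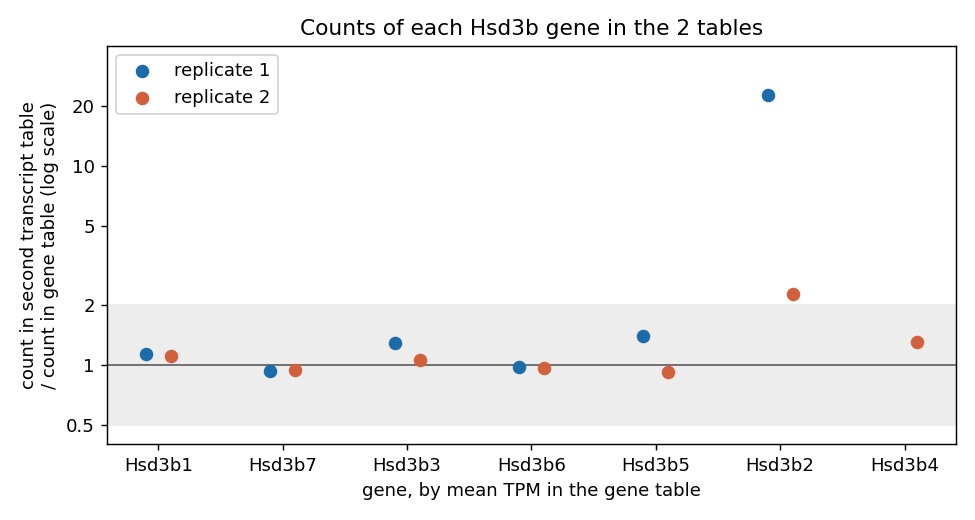
Count of each member in the second transcript table divided by its count in the gene table (vertical axis, log scale) for replicate 1 (blue) and replicate 2 (orange), with 2-fold either way in grey. Hsd3b4 in replicate 1 is left out because its gene table count is 0. Hsd3b2, at 22.7 and 2.29, is the member outside the band.

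The split of each member's counts among its transcripts was less certain than its total. Hsd3b1 has 2 annotated transcripts, both coding, Hsd3b1-201 with 1663 bases in 4 exons and Hsd3b1-202 with 1855 bases in 5 exons. The first transcript table put 53.8% of the counts on Hsd3b1-201 in replicate 1 and 57.6% in replicate 2, and the second table put 42.4% and 28.9% there. The tables thus named opposite transcripts as the major one. The authors' posterior SD was 982 counts for each of the 2 transcripts in replicate 1 but 0.11 for the gene as a whole. Their deposited interval of the gene's TPM, 2800 to 2829 in replicate 1 and 1240 to 1259 in replicate 2, lay below the deposited TPM itself in both libraries.

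Hsd3b6 counts fell mainly on Hsd3b6-201 in both tables, with 92.6% and 85.3% in the first. Hsd3b3 has 6 annotated transcripts, and the tables divided its counts in different ways. In replicate 2 the first table put 75.1% on Hsd3b3-204 and none on Hsd3b3-202, and the second table put 13.5% and 43.7% on these. The non-coding Hsd3b3-205, whose windows were all its own, had 130 and 139 counts in replicate 2 in the 2 tables and 7 in replicate 1 in both.

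Hsd3b7 has 13 annotated transcripts, of which 5 retain an intron. In the first table the retained-intron forms held 28.6% of its counts in replicate 1 and 17.4% in replicate 2, and the second table gave them 28.8% and 19.2%. Both tables thus placed a larger share on retained-intron forms in replicate 1, the library with the lower level of the gene. The main coding form, Hsd3b7-201, held 48.2% and 78.1% in the first table, with posterior SDs of 51.3 and 53.3 counts. In the second table it held 55.4% and 63.1%.

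**Figure D5:**
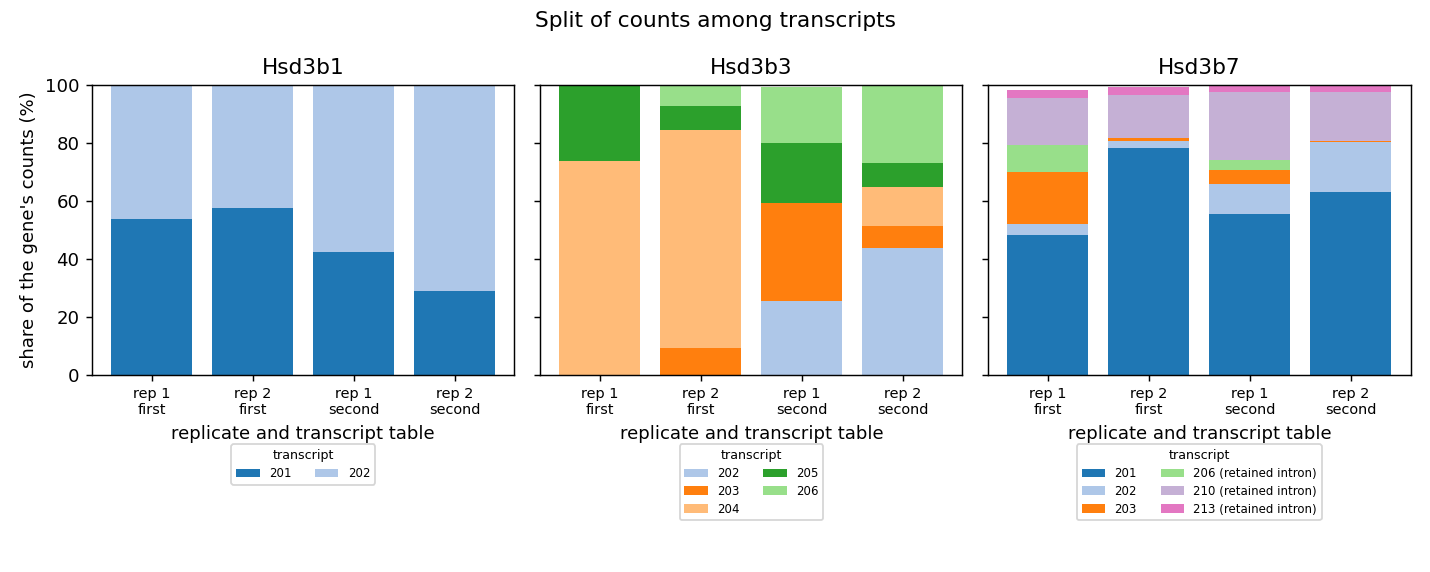
Share of the counts of Hsd3b1, Hsd3b3 and Hsd3b7 (percent, vertical axis) given to each transcript in replicates 1 and 2 of the first and second transcript tables. Transcripts under 2% in all 4 bars are left out, so some bars end below the top. For Hsd3b1 the share of Hsd3b1-201 went from 53.8% and 57.6% in the first table to 42.4% and 28.9% in the second.

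The promoters of the members were compared with each other. Sequences upstream of the RefSeq start sites were held for 7 of 7 members. For each member, only the 250 bases before the first start listed (RefSeq, build GRCm38.p6) were used. They were searched for the longest run shared by any of the 21 pairs. Hsd3b3 and Hsd3b5 shared a run of 24 bases, and the next longest run of any pair had 11 bases. The run is in capitals in the sequences of the minus strand, 5′ to 3′, from chr3:98763129-98763378 for Hsd3b3 and chr3:98645535-98645784 for Hsd3b5.
Hsd3b3: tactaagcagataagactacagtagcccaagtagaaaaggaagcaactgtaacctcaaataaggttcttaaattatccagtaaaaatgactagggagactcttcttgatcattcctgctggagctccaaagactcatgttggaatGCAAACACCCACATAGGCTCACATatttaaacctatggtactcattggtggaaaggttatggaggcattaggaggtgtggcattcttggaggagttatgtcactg
Hsd3b5: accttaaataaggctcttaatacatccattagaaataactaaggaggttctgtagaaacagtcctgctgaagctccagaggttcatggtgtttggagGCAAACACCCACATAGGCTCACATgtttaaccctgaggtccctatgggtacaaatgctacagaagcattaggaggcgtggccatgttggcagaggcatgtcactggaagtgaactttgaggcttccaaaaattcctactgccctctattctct
Whether the run bears on the level of either gene was not tested. Counted on both strands, it occurred in 0.00913% of 32851 upstream sequences, which are 3 sequences, all of Hsd3b3 or Hsd3b5. The RefSeq start used for Hsd3b5 lies 15.3 kb upstream of the GENCODE start, and which of them these reads came from was not tested. The motif AAGGTCA, a binding sequence of the nuclear receptor Nr5a1 that drives adrenal steroid genes, was found on neither strand of the 250 bases in any member, and in 4.08% of all upstream sequences. That says only that these letters are not in the window before the start used, and further starts of a member were not searched.

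The genes whose difference between the libraries was nearest to that of a member, over these 2 libraries alone, were named by a fixed rule. For Hsd3b1, among 464 protein-coding genes of at least 100 TPM, they were Cyp2f2, Dlk1, Soat1, Gramd1b and Cyp11a1, all within 0.05 on the log2 scale. Soat1, which makes cholesterol esters, had 199 and 95.8 TPM. Among 6830 genes within 4-fold of its level, those nearest to Hsd3b7 were Fah, Cth, Nipsnap1, Maob and Cd302, with Fah, the last enzyme of tyrosine breakdown, at 16.1 and 61.6 TPM. For Hsd3b3, among 8378 genes, they included Cyp2d10, Slco1b2, Cox6a2 and Gldc. Slco1b2, a hepatocyte transporter, had 0.87 and 45.7 TPM, and Cox6a2 had 0.15 and 10.1 TPM.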

How the data were processed

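In all, 2 libraries of 1 group were compared. Per the labels, the assembly is mm10 and the annotation GENCODE M21. The authors deposited expected counts, TPM and percent of gene TPM per transcript in the gene table and first transcript table, and estimated counts and TPM in the second transcript table, per the file headers. Which tools made them, and whether counting used strand, is not given in the sources used here. Expected counts were rounded and scaled with edgeR 4.0.16 (TMM). DESeq2 1.42.0 size factors were an alternative. Differences are log2 with a prior count of 0.5 and intervals at 95%. A count of 0 was bounded by 3 counts per library. TPM tables were compared with a pseudocount of 1. Named genes are the members, their neighbours within 100 kb, list genes of highest mean TPM, and, within each likeness list, the 5 nearest genes, beside a few singled out after their values were seen. Members and lists were chosen with earlier results of these data known. The fold script was tested on simulated counts. Windows came from the reference GENCODE M21 transcripts, promoters from RefSeq. Libraries held 37586172 and 33844950 counts. Some items that the rules would name are not reported here.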

Additional observations from a re-analysis of the deposited data

How the results depend on the processing

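Of 122 values under alternatives for 32 results, 103 kept the main reading. None changed sign, but levels, places in the order, counts of members and shares of windows could not do so. The replicate differences made up 49 of these values, and 44 of them stayed on the same side of 2-fold. With 2 replicates, a mean TPM without one of them cannot move beyond the SD, so those values say nothing of stability. Hsd3b1 passed 2-fold lower in replicate 2 with total counts (-1.10), spike-ins (-1.03) and log2(TPM + 1) (-1.17, where the median gene compared was at -0.31), so the count of members lower went from 0 to 1 with total counts, spike-ins and a 1.5-fold threshold. Members over 2-fold apart between the tables numbered 2 with a pseudocount of 0.1 and 0 relative to the median gene. Hsd3b2 fell under 2-fold in the second table (0.93), which also gave it 3.08 TPM in place of 0.95, and Hsd3b4 did so on log2(TPM + 1) (0.85). Windows of 31 bases lowered the share of own windows in 6 members, to 11.2% for Hsd3b7 and 65.9% for Hsd3b5. The number of members higher was 5 with a mean count of at least 5 and 3 with at least 100. Leaving out a replicate put Hsd3b1 at 1275 and 2870 TPM, and its log2 ratio to Hsd3b6 between 7.03 and 7.38. Except for the effect of a lower pseudocount or fewer genes, the cause was not tested. No paired analysis was possible because there is 1 group. With 2 libraries, low counts limit Hsd3b2, Hsd3b4 and Hsd3b5 in replicate 1 most, and mm10 comes from one parent strain, whose effect on reads of the other allele was not tested.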
